A study of Mus musculus with 12 samples.

Results

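AP-1 is a family of transcription factors, and 10 of its genes and close relatives were followed here while a mouse lymphoid line was turned towards macrophages. The genes were Fos, Fosb, Fosl1, Fosl2, Jun, Junb, Jund, Atf3, Batf and Maff, taken as a list of symbols. Every probe set that the platform annotation assigns to these symbols alone was used, which gave 14 probe sets for the 10 genes, out of 45037 probe sets without controls. Of these, 12 probe sets and 9 genes passed a filter on dim signal, among 11696 genes tested of 18193 with a probe set, and the gene that did not pass was Fosl1. A gene passed where its signal exceeded 74.6, the median of all values, on at least 2 arrays. A gene could therefore pass through its bright groups alone, as Fosl2 and Fosb did, which were under that level on both arrays of vehicle C10.

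AP-1 proteins bind DNA as dimers through a basic leucine zipper, and Fos proteins need a Jun partner whereas Jun proteins can also pair with each other. Fos, Fosb, Jun, Junb and Atf3 are textbook immediate early genes that growth factors and stress switch on within minutes through MAP kinases, and their mRNAs are short-lived. In blood cells, Jun and Fos proteins are known to cooperate with PU.1 and C/EBP factors at myeloid genes, and Batf with Irf4 in lymphocytes.

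The 12 RNA samples came from established mouse cell lines and were measured on one-colour arrays. They fall into 6 conditions of 2 arrays. One line is HAFTL, from fetal liver and transformed by the Ha-ras oncogene, which was given beta-estradiol. The other is C10, which carries a form of C/EBPα that can be induced and was given ethanol, called vehicle C10 here, or beta-estradiol for 3, 12, 24 or 48 h. All C10 groups carry the inducible factor, and the labels give no time for HAFTL or for the ethanol group and no age or passage. As background from the study itself, C10 is a single clone derived from HAFTL, so all times describe 1 clone. Nothing in the labels says whether the 2 arrays of a condition stem from different cultures. Their spread, which is all that the p-values measure, may therefore be technical.

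The 250 bases before the RefSeq start of the gene (build GRCm38.p6) are shown for Fos, Fosl2, Jun and Jund, because their signals made the widest swings in the family. These stretches are chr12:85473640-85473889 on the plus strand, chr5:32136222-32136471 on the plus strand, chr4:95052223-95052472 on the minus strand and chr8:70697489-70697738 on the plus strand. Each is written 5′ to 3′ towards the start of the gene. Capitals mark matches on either strand to TGANTCA (the classical AP-1 site), TGACNTCA (an AP-1 and CRE-like site), TGACG (the core of a CRE, which can lie inside a TGACNTCA match) and TTNCNNAA (a C/EBP-like site).
Fos: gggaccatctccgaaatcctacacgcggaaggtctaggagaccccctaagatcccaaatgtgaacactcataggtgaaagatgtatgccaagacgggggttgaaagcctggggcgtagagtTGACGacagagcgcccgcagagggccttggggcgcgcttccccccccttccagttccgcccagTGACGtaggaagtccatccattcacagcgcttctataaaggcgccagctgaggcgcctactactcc
Fosl2: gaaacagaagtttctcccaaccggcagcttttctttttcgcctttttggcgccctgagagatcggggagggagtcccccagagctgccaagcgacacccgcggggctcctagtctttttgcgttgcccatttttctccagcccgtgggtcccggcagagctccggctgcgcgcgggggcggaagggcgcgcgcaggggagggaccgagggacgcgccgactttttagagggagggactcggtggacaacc
Jun: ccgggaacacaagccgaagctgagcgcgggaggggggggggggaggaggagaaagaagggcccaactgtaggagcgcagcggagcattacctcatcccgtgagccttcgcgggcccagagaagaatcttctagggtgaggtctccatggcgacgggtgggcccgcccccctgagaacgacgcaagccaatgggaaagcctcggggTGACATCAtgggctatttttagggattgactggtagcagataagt
Jund: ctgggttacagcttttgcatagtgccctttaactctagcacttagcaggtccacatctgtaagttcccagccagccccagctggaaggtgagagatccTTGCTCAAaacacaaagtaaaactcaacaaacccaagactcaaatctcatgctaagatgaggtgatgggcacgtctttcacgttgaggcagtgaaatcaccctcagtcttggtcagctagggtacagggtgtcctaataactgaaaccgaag
The Fos stretch held TGACG at -129 to -125 and again at -66 to -62, counted from the start of the gene, and TATAA at -33 to -29. The Jun stretch held tgacatca at -45 to -38, a TGACNTCA match. The Jund stretch held ttgctcaa at -152 to -145, a TTNCNNAA match, and the Fosl2 stretch held none of the 4 motifs. RefSeq gave such a stretch for 9 of the 10 genes, all but Fosl1, with 11 stretches in all, 3 of them for Maff. A gene was counted where any of its stretches held the motif, and the shares are of 27025 genes counted in the same way over 32851 stretches. Of the 9 genes, 6 had TGACG (Fos, Fosb, Junb, Atf3, Batf and Maff), against 19.8% of genes. TGACNTCA was found for 2 (Jun and Maff) against 8.55%, and TTNCNNAA for 2 (Jund and Maff, in another Maff stretch) against 40.3%. TGANTCA was found for none, against 7.82%, and the CArG box, the core of a serum response element, for none, against 1.62%. Only these 250 bases were searched, so sites further upstream, in Fos or the other genes, would not have been seen. TATAA was found for Fos alone, against 25.8%. These matches describe letters only and were not tested against the array data.

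B lineage markers were dimmer and macrophage markers brighter late in the course. The summed signal of 9 B lineage markers lay between 105904 and 107294 in vehicle C10 and between 18132 and 19760 at 48 h, with 9 and 7 of the 9 above the filter level on both arrays. For 9 macrophage markers the sum lay between 1550 and 1615 in vehicle C10 and between 116806 and 116840 at 48 h, with 6 and 8 above the level. The summed signal of 8 granulocyte markers was 246 and 361 in vehicle C10 and peaked at 16728 and 18235 at 24 h. Only 3 of these 8 were above the level on both arrays at 24 h, with 0 in vehicle C10 and 4 at 48 h. Markers of T and NK cells (6), erythroid cells (3) and stroma (6) summed to at most 279, 296 and 649 on any array. The ratio of 5′ to 3′ probe signal for Actb, which drops when RNA is degraded, was 0.582 and 0.638 in vehicle C10 and between 0.746 and 0.848 with estradiol in C10. The second 3 h array had an 18S rRNA control signal of 5929, against at most 1010 on the other 11. The part of these differences in the results that follow was not tested. In such bulk RNA, a change in the number of cells of a type and a change in RNA per cell cannot be told apart.

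**Figure D1:**
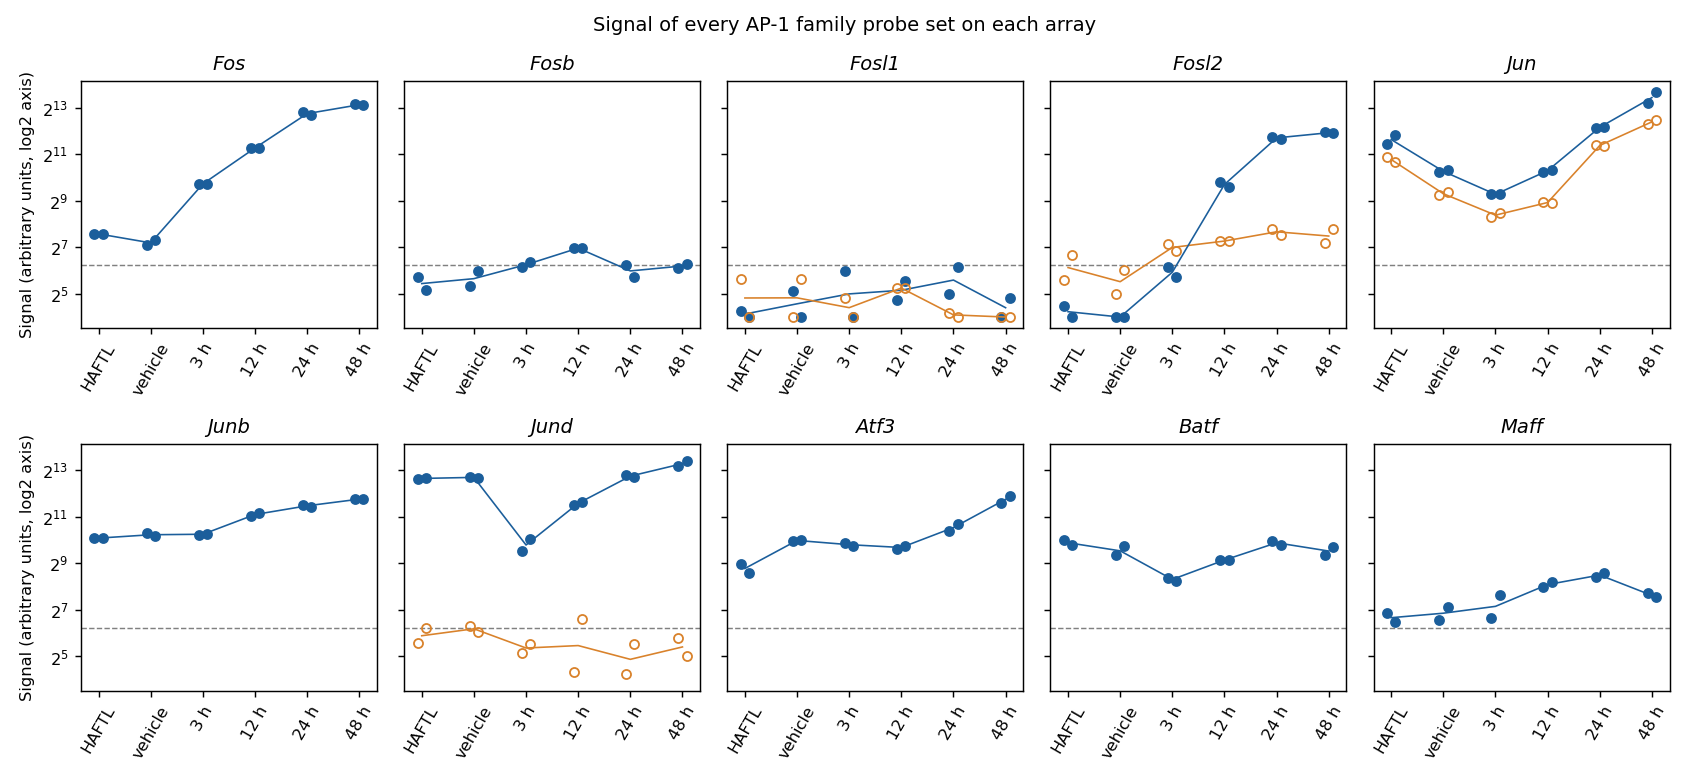
Signal of each AP-1 family probe set after quantile normalisation (vertical, arbitrary units, log2 axis) on each of 12 arrays in 6 groups (horizontal); filled blue points are the probe set that stands for the gene, open orange points any further probe set, lines join geometric means of 2 arrays, and the dashed line is the filter level of 74.6. Fos and Fosl2 climb with time, Jund, Jun and Batf are lowest at 3 h, and both Fosl1 probe sets stay under the line on every array.

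Fos showed a stepwise rise at every time. It encodes the founding Fos protein, which activates genes as a dimer with Jun. Its signal was 135 and 157 in vehicle C10, 847 and 838 at 3 h, then 2462 and 2451 at 12 h, then 7188 and 6497 at 24 h, and lastly 8984 and 8819 at 48 h. No 2 of these groups overlapped. In the limma fit with Benjamini-Hochberg adjustment over all genes tested, used for every call here, Fos at 3 h rose by 2.53 ± 0.09 in log2 units (SE, n = 2 per group, adjusted p = 1.2e-06). With the same standard error, the rise was 4.08 by 12 h, then 5.55 by 24 h and 5.93 by 48 h. Each step was itself called. The rise from 3 h to 12 h was 1.54 (adjusted p = 3.1e-05), from 12 h to 24 h 1.48 (adjusted p = 9.9e-06), and from 24 h to 48 h 0.38 (adjusted p = 0.016). With arrays scaled to spike-in control RNAs, only the step from 3 h to 12 h was called. The later steps were then 1.12 and 0.67 (adjusted p = 0.10 and 0.71). The last step is the weakest, and its call was lost without either 48 h array (0.37 and 0.39, adjusted p = 0.067 and 0.052) and without the second 24 h array (0.31, adjusted p = 0.090).

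Fosl2, which encodes Fra-2, came from dim to bright between 3 h and 24 h. Its brighter probe set was at the floor of 16 on both vehicle arrays and read 71.0 and 52.0 at 3 h, then 894 and 769 at 12 h, then 3401 and 3231 at 24 h, and lastly 3912 and 3825 at 48 h. Since both vehicle arrays lay under the filter level, the rise is given as a lower bound, the mean of the brighter group over that level. It was at least 11.1-fold at 12 h (adjusted p = 5.4e-07), at least 44.4-fold at 24 h (adjusted p = 1.0e-07) and at least 51.8-fold at 48 h (adjusted p = 5.2e-08). At 3 h both groups were under the level, so no fold is given. The fit called a rise there (adjusted p = 1.1e-04), and the call ended when the floor was set at 64 (adjusted p = 0.55). The step from 12 h to 24 h was 2.00 ± 0.18 (SE, n = 2 per group), and that from 24 h to 48 h was 0.22 and did not pass (adjusted p = 0.42).

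The other Fosl2 probe set went the same way from vehicle but with a much flatter course. It read 32.1 and 65.6 in vehicle C10, 141 and 115 at 3 h, then 153 and 155 at 12 h, then 221 and 185 at 24 h, and lastly 146 and 218 at 48 h. Tested among all probe sets, it was higher by at least 1.70-fold at 3 h (adjusted p = 0.026) and by at least 2.71-fold at 24 h (adjusted p = 0.0037). Its step from 3 h to 12 h was 0.27 ± 0.43 (SE, n = 2 per group, adjusted p = 0.69), where the brighter probe set had a called rise of at least 11.1-fold. The probe sets of Fosl2 thus share the direction and not the size of the change.

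Fosb and Fosl1 stayed dim. Fosb, an immediate early relative of Fos, read 40.2 and 62.7 in vehicle C10, 70.7 and 81.9 at 3 h, then 125 and 124 at 12 h, then 76.0 and 52.4 at 24 h, and lastly 69.6 and 76.9 at 48 h. The 12 h arrays were the highest and overlapped no other group. The 12 h signal of Fosb exceeded that of vehicle C10 at least 1.67-fold (adjusted p = 0.0051). Fosb then fell by 0.98 ± 0.28 from 12 h to 24 h (SE, n = 2 per group, adjusted p = 0.022). That fall was lost without either 12 h array (-0.97 and -0.99, adjusted p = 0.081 and 0.076) and without the second 24 h array (-0.71, adjusted p = 0.13). At the other times its difference from vehicle C10 did not pass (adjusted p = 0.11, 0.34 and 0.12), and no size is given against vehicle arrays under the level. Without the second vehicle array the differences at 3 h and 48 h passed (adjusted p = 0.045 and 0.042), on the single reading of 40.2. Fosl1, which encodes Fra-1, was under the filter level on all 12 arrays by both probe sets, with a highest reading of 71.9, so no change is given.

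Jun fell first and rose later. It encodes c-Jun, the main partner of Fos proteins. The brighter of its probe sets read 1193 and 1257 in vehicle C10, 618 and 617 at 3 h, then 1215 and 1285 at 12 h, then 4503 and 4581 at 24 h, and lastly 9390 and 12895 at 48 h. The 3 h arrays were the lowest of all, the 12 h arrays overlapped vehicle C10, and the 24 h and 48 h arrays stood above both. Jun fell by 0.99 ± 0.17 at 3 h (SE, n = 2 per group, adjusted p = 0.0021), was at 0.03 at 12 h (adjusted p = 0.90), and rose by 1.89 at 24 h and 3.17 at 48 h (adjusted p = 4.4e-05 and 2.0e-06). The steps from 3 h to 12 h (1.02), 12 h to 24 h (1.86) and 24 h to 48 h (1.28) were each called higher. Under spike-in scaling only the step from 12 h to 24 h was called (1.51, adjusted p = 0.031). The other Jun probe set gave -0.92 ± 0.11 at 3 h, 2.07 at 24 h and 3.09 at 48 h. It differed at 12 h, where it still fell by 0.38 (adjusted p = 0.024).

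Jund made the deepest early fall of the family. It encodes JunD, a Jun protein that many resting cells express steadily. Its signal was 6672 and 6566 in vehicle C10, 732 and 1067 at 3 h, then 2944 and 3175 at 12 h, then 7058 and 6685 at 24 h, and lastly 9181 and 10806 at 48 h. The 3 h arrays lay far under all others, and the 12 h arrays lay between them and vehicle C10. Jund fell by 2.90 ± 0.17 at 3 h (SE, n = 2 per group, adjusted p = 9.1e-06), a drop of 7.49-fold, and by 1.11 at 12 h (adjusted p = 9.3e-04). At 24 h it stood at 0.05 (adjusted p = 0.81), and it rose by 0.59 at 48 h (adjusted p = 0.016). The rise at 48 h was lost without either vehicle array (0.60 and 0.58, adjusted p = 0.055 and 0.063) and without the second 48 h array (0.47, adjusted p = 0.090). Its other probe set exceeded the filter level on 2 of 12 arrays and had no called change. The log2 signals of both probe sets were also averaged, which gives the dim probe set equal weight. The change at 48 h was then -0.10 (adjusted p = 0.85) and that at 12 h -0.92 (adjusted p = 0.083).

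Junb rose late and with little spread. It encodes JunB, which often opposes c-Jun in cell growth. Its signal was 1252 and 1149 in vehicle C10, 1201 and 1234 at 3 h, then 2084 and 2303 at 12 h, then 2909 and 2772 at 24 h, and lastly 3476 and 3449 at 48 h. The 3 h arrays lay within the range of vehicle C10, and each later group lay above the one before it. The change was 0.02 ± 0.08 at 3 h (SE, n = 2 per group, adjusted p = 0.85), and Junb then rose by 0.87 at 12 h, 1.24 at 24 h and 1.53 at 48 h (adjusted p = 6.9e-05, 6.5e-06 and 1.5e-06).

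**Figure D2:**
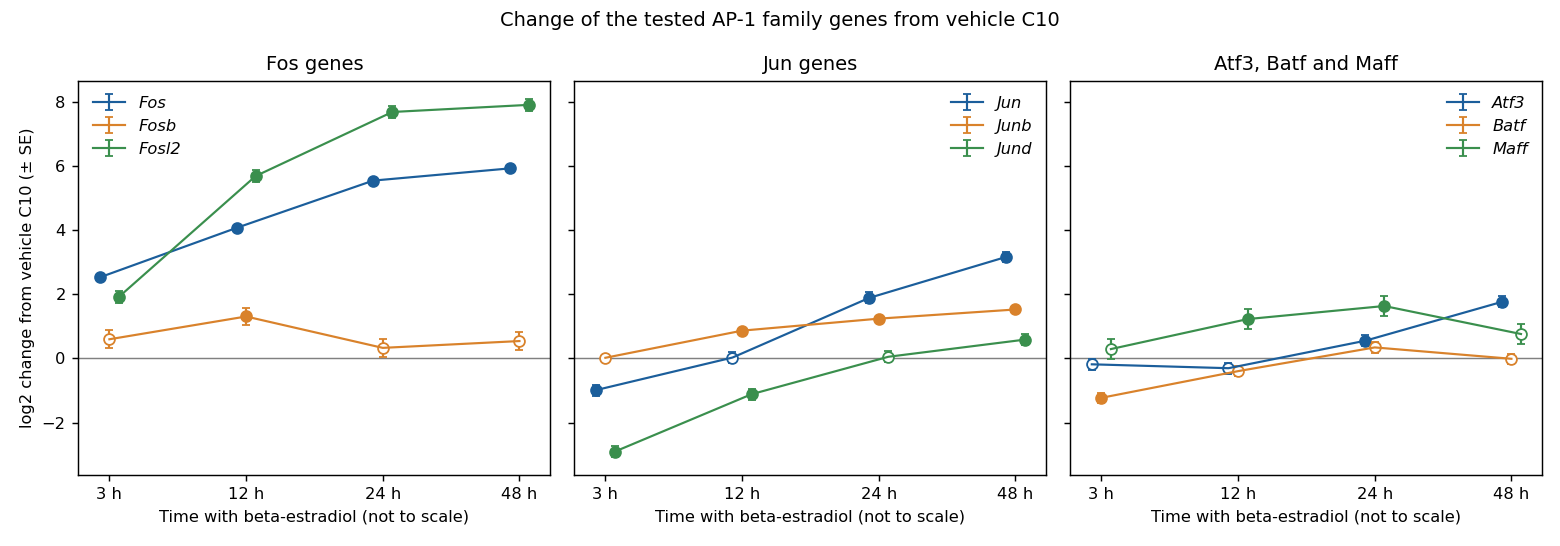
Change from vehicle C10 (vertical, log2, points with standard errors from limma, n = 2 arrays per group) at 4 times of beta-estradiol (horizontal, not to scale) for the 9 genes tested; filled points passed an adjusted p of 0.05. Values for Fosl2 and Fosb are fitted against vehicle signals under the filter level. The Fos panel holds rises that reach 5.93 for Fos, and in the Jun panel Jund starts at -2.90 and ends at 0.59.

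Atf3, a stress-induced gene whose product can repress inflammatory genes, changed late. Its signal was 1008 and 1016 in vehicle C10, 932 and 854 at 3 h, then 793 and 848 at 12 h, then 1354 and 1629 at 24 h, and lastly 3078 and 3857 at 48 h. Neither the 3 h nor the 12 h difference passed (-0.18 and -0.30 ± 0.17, SE, n = 2 per group). Atf3 rose by 0.55 at 24 h (adjusted p = 0.023) and by 1.77 at 48 h (adjusted p = 4.6e-05). The 24 h call was lost without either vehicle array (0.55 and 0.56, adjusted p = 0.081 and 0.078), without the second 24 h array (0.42, adjusted p = 0.13) and with arrays centred on their medians (0.48, adjusted p = 0.067).

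Batf fell early and returned. It encodes a factor that pairs with Jun proteins and lacks an activation domain of its own. Its signal was 651 and 847 in vehicle C10, 336 and 300 at 3 h, then 566 and 564 at 12 h, then 1002 and 889 at 24 h, and lastly 663 and 822 at 48 h. The 3 h arrays were the lowest and the 48 h arrays lay within the range of vehicle C10. Batf fell by 1.23 ± 0.16 at 3 h (SE, n = 2 per group, adjusted p = 5.5e-04), and the changes of -0.39, 0.35 and -0.01 at 12, 24 and 48 h did not pass. The fall at 12 h was called without the first vehicle array (-0.58, adjusted p = 0.032), and the rise at 24 h without the second (0.54, adjusted p = 0.038). From 3 h it rose by 0.83 to 12 h and by a further 0.74 to 24 h (adjusted p = 0.0063 and 0.0071). Neither rise was called under spike-in scaling (0.91 and 0.33, adjusted p = 0.45 and 0.68).

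Maff had a course with its peak at 24 h. It encodes a small Maf protein, which binds DNA without an activation domain. Its signal was 95.1 and 141 in vehicle C10, 102 and 198 at 3 h, then 254 and 291 at 12 h, then 340 and 383 at 24 h, and lastly 209 and 185 at 48 h. Maff rose by 1.23 ± 0.32 at 12 h and by 1.64 at 24 h (SE, n = 2 per group, adjusted p = 0.013 and 0.0028), while 0.29 at 3 h and 0.76 at 48 h did not pass. The call at 12 h was lost without the first vehicle array (0.94, adjusted p = 0.084) and without the second 12 h array (1.13, adjusted p = 0.067). The rise at 48 h was called without the second vehicle array (1.05) and without either 3 h array (0.76). It was also called under spike-in scaling (1.34, adjusted p = 0.035), a 70th percentile filter (0.041), an intensity trend in the variance (0.048) and HAFTL as control (0.031). The step from 3 h to 12 h (0.94, adjusted p = 0.058) did not pass. It passed under several settings, among them median centring (0.98, adjusted p = 0.047), but not under spike-in scaling (1.07, adjusted p = 0.33).

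Across the family, the balance moved from mixed to higher. At 3 h, 5 of the 9 genes tested were called, where 48.3% of all genes tested were. They divided into 2 higher (20.9% of all genes) and 3 lower (27.3%), so these counts were near the background. Of the 2 higher, Fosl2 was under the filter level in both groups by its brighter probe set, and with a floor of 64 that call ended. Its other probe set was above the level on both 3 h arrays. Tested among all probe sets, it was higher there by at least 1.70-fold (adjusted p = 0.026). By 12 h there were 6 called genes (51.0%), of which 5 were higher (22.3%) and 1 was lower (28.7%). By 24 h, 6 genes were called (57.4%), each of them higher (24.2%) and none lower (33.3%). By 48 h the count was again 6 (62.4%), each higher (24.2%) and none lower (38.2%). No AP-1 gene was called lower in the last 2 comparisons under any alternative run, by limma at the adjusted threshold. The median change of the 9 genes was 0.02, 0.87, 1.24 and 1.53 in order of time, beside -0.06, -0.08, -0.13 and -0.19 over all genes. With dim genes at their bounds, and those without a bound left out, it was -0.08, 0.74, 1.44 and 1.65. These 4 comparisons share the same vehicle arrays. The higher counts include Fosl2 at all 4 times and Fosb at 12 h, and the medians include both genes. Both passed the filter only through treated C10 groups, so a call of lower against vehicle C10 was hardly open to them. The other higher genes were Fos, Junb and Maff at 12 h. They were Fos, Jun, Junb, Atf3 and Maff at 24 h, and Fos, Jun, Junb, Jund and Atf3 at 48 h. Over the whole course, all 9 genes, Fosl2 and Fosb among them, were called by the moderated F test, against 76.0% of all genes.

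The steps between times do not use the vehicle means. The vehicle arrays enter them through the pooled spread, the joint normalisation, the filter and the choice of probe set. From 3 h to 12 h, 6 of 9 genes were called (33.2% of all genes), each higher (16.6%) and none lower (16.6%). The 6 include Fosl2, which was under the filter level on both 3 h arrays and passed the filter only through later groups. A call of lower from 3 h was therefore hardly open to Fosl2. From 12 h to 24 h, 8 were called (45.4%), with 7 higher (22.3%) and 1, Fosb, lower (23.1%). From 24 h to 48 h, 5 were called (27.4%), each higher (9.47%) and none lower (17.9%). Maff had -0.87 in this step, which did not pass (adjusted p = 0.081). It was called lower with the filter at the 70th percentile (adjusted p = 0.044) and with only the groups compared (adjusted p = 0.046). The same held with an intensity trend in the variance and without either 3 h array. Fos, Jun, Junb and Jund were called higher in all 3 steps, and Batf in the first and second only. Under spike-in scaling fewer were called. The first step then had 3 genes higher, Fos, Fosl2 and Jund (2.33% of all genes higher and 1.16% lower). The second had 2 higher, Fosl2 and Jun (4.18% and 9.59%), and the last had none (1.58% and 1.05%). There the second step of Junb was -0.026 (adjusted p = 0.98). The last step of Jund (0.54, adjusted p = 0.049) was lost without any single array outside the 3 h group (adjusted p = 0.070 to 0.20). That of Junb (0.29, adjusted p = 0.030) was lost without any single 24 h or 48 h array (adjusted p = 0.076 to 0.14). Between 3 h and 48 h, 7 genes were called (63.3%), each higher (28.7%) and none lower (34.6%), Fosb and Maff being the 2 that did not pass. Fosl2 is among the 7, with the same limit as in the first step.

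Sizes and some calls depended on how arrays were scaled. The poly-A spike-in controls, RNAs added to each sample, differed between arrays. Scaling to them moved the median of all genes to 0.60, 0.62, 0.17 and 0.41 in order of time. Under that scaling Fos rose by 3.19 ± 0.45 at 3 h (SE, n = 2 per group) and Jund fell by 2.15 ± 0.47 (adjusted p = 0.0018). The falls of Jun and Batf at 3 h became -0.36 and -0.64 and were no longer called (adjusted p = 0.60 and 0.33), and that of Jund at 12 h became -0.30 (adjusted p = 0.67). Relative to the shifted median of all genes, the 3 h values were -0.96 for Jun, -1.24 for Batf and -2.75 for Jund. The counts became 2 higher (16.7% of all genes under this scaling) and 1 lower (3.43%) at 3 h. At the later times 5, 5 and 7 were higher (19.7%, 12.0% and 20.8%). None was lower, where few of all genes were (3.38%, 6.80% and 8.49%). The spike-in signals differed within groups as well, with log2 means of 8.18 and 7.14 on the 48 h arrays, and the standard errors were larger.

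**Figure D3:**
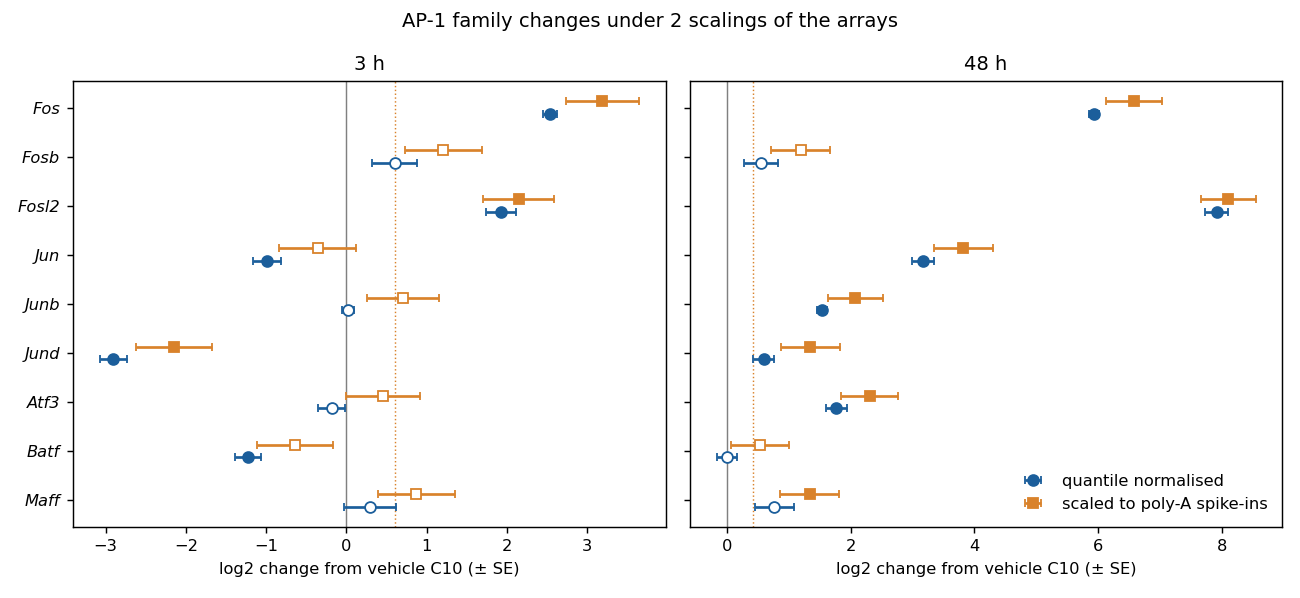
Change from vehicle C10 at 3 h (left) and 48 h (right) for the 9 genes tested (vertical), on the log2 scale with standard errors (horizontal, n = 2 arrays per group), under quantile normalisation (blue circles) and spike-in scaling (orange squares); filled symbols passed an adjusted p of 0.05, and the dotted line is the median of all genes under spike-in scaling. Jund is called lower at 3 h under both scalings, while Jun and Batf are filled only in blue. Values for Fosl2 and Fosb are fitted against vehicle signals under the filter level.

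In HAFTL with estradiol, 3 of the 9 family genes tested were called different from vehicle C10. Fos read 192 and 189, against 135 and 157, and was higher by 0.39 ± 0.09 (SE, n = 2 per group, adjusted p = 0.025), far from its levels in treated C10. Jun read 2739 and 3636 and was higher by 1.37 (adjusted p = 0.0027), which placed HAFTL between the 12 h and 24 h arrays of C10. Atf3 read 508 and 380, the lowest of all groups, and was 2.30-fold lower (adjusted p = 0.0042). Thus 3 of 9 genes were called (15.2% of all genes), with 2 higher (7.11%) and 1 lower (8.12%). With arrays scaled to the spike-ins, the shares of all genes called higher and lower were 0.517% and 0.550%. Under spike-in scaling no AP-1 gene was called here, and the Fos call was lost without either HAFTL array and without the first vehicle array (adjusted p = 0.089 to 0.12). Jund in HAFTL read 6329 and 6492, with a difference of -0.05 ± 0.17, and Fosl2 read 22.0 and the floor of 16. With HAFTL as the control in place of vehicle C10, Jun at 12 h turned to -1.34 (adjusted p = 4.1e-04), and Atf3 turned to 1.02 at 3 h and 0.90 at 12 h (adjusted p = 0.0016 and 0.0029).

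The order of the 6 groups differed between genes. For Fos it ran 48 h, 24 h, 12 h, 3 h, HAFTL and vehicle C10 from high to low, and no neighbours overlapped. For Jun it ran 48 h, 24 h, HAFTL, 12 h, vehicle C10 and 3 h, with 12 h and vehicle C10 overlapping. For Jund it ran 48 h, 24 h, vehicle C10, HAFTL, 12 h and 3 h. For Batf, HAFTL and 24 h overlapped at the top, as did vehicle C10 and 48 h in the middle. Across the 6 group means, Fos and Fosl2 had a Pearson r of 0.986, Jund and Batf 0.920, and Fos and Jund 0.15. These are descriptions over 6 points that come from the same 12 arrays.

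The genes outside the family whose 6 group means ran most like each member were sought among 3031 tested genes with a range of at least 2 on the log2 scale. For Fos they were 6330407A03Rik (r = 0.997), Il1b (0.995) and Mmp8 (0.994). For Fosl2 they were Abca9 (0.999), Rnf130 (0.998) and Milr1 (0.998). For Jun they were Nudt13 (0.997), Dner (0.996) and Nlgn2 (0.993), and for Atf3 Bcl6 (0.987), Kmo (0.986) and Eqtn (0.986). For Jund they were Neu1 (0.999), Gm4285 (0.994) and Atxn7l1 (0.992). Neu1, which encodes a lysosomal sialidase, had log2 means of 10.47 in vehicle C10 and, in order of time, 8.62, 9.75, 10.57 and 10.99. With 6 points and so many candidates, high values of r are common, and nothing about shared control is implied.

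The wider AP-1 pathway was read from 6 lists of genes. Beside the counts that follow, 20.9% of all genes tested were called higher and 27.3% lower at 3 h, and 24.2% and 38.2% at 48 h. Some listed genes were under the filter level on both arrays of vehicle C10, Map3k8, Batf2 and Ptgs2 among them. A call of lower against vehicle C10 was hardly open to such genes. Among MAP kinases, which switch AP-1 on, 11 genes were tested. At 3 h, 6 of them were higher and 2 lower (median 0.34), and by 48 h it was 8 and 1 (median 0.81). Map3k8, a kinase upstream of ERK in Toll-like receptor signalling, was higher by at least 3.17-fold at 3 h and at least 10.8-fold at 48 h (adjusted p = 0.0021 and 3.1e-05). Mapk14, the p38α gene, rose by 1.15 ± 0.09 at 3 h and by 0.81 at 48 h (SE, n = 2 per group), and Map3k5, which encodes ASK1, by 0.34 and 1.77. Map2k1, which activates ERK, fell by 0.34 at 3 h and rose by 1.55 at 48 h, and Map2k6, which activates p38, was lower by at least 2.55-fold at 48 h (adjusted p = 1.0e-04). Without either vehicle array the 3 h counts were 5 higher and 0 lower. Under spike-in scaling they were 4 and 0 (16.7% and 3.43% of all genes). There Map2k1 turned to 0.41 (adjusted p = 0.51), beside a median of 0.60 over all genes.

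Serum response factor acts with partners that are known to drive Fos transcription in many cells. Of 6 such genes tested, 1 was higher and 3 lower at 3 h (20.9% and 27.3% of all genes), and 1 and 2 at 48 h (24.2% and 38.2%). Elk3 fell by 2.52 ± 0.08 at 3 h (SE, n = 2 per group), from 2438 and 2482 to 432 and 424, and was at -0.0036 at 48 h (adjusted p = 0.97). Mrtfa, a coactivator of serum response factor, went the other way, up by 2.28 at 3 h and by 0.44 at 48 h. Elk4 fell by 0.49 at 3 h and by 0.41 at 48 h, Srf itself fell by 0.50 at 48 h, and Elk1 had -0.07 and 0.35, neither of which passed. Under spike-in scaling the list had 1 higher (16.7% of all genes) and 1 lower (3.43%) at 3 h, and 0 (20.8%) and 0 (8.49%) at 48 h. Its median at 3 h turned from -0.21 to 0.44, beside 0.60 for all genes under that scaling. There Elk4 turned to 0.35 and 0.26 and Srf at 48 h to 0.051, and both turned with their probe sets averaged (Elk4 0.40 at 3 h, Srf 0.26 at 48 h).

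Of 7 regulators of AP-1 turnover, 1 was higher and 5 were lower at 3 h (20.9% and 27.3% of all genes), and 3 and 2 at 48 h (24.2% and 38.2%). Zfp36l2, which encodes an RNA-binding protein that promotes decay of AU-rich mRNAs, fell by 1.73 ± 0.09 at 3 h (SE, n = 2 per group) and rose by 0.48 at 48 h. Its relative Zfp36, tristetraprolin, rose by 0.47 at 3 h and 2.42 at 48 h. Det1 and Cop1 belong to a ubiquitin ligase that acts on c-Jun. Det1 fell by 1.02 at 3 h and 1.65 at 48 h, and Cop1 fell by 0.38 and rose by 0.57. Fbxw7, of another ligase for c-Jun, had -0.19 at 3 h, which did not pass, and fell by 0.64 at 48 h. The 3 h count was 0 and 0 under spike-in scaling (16.7% and 3.43% of all genes). There the median turned from -0.47 to 0.41, beside 0.60 for all genes, and Cop1 at 3 h turned to 0.45. With its probe sets averaged, Zfp36l2 stood at -0.034 at 48 h.

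Basic leucine zipper partners outside the 10 genes numbered 13 tested. At 3 h, 3 were higher and 5 lower, near the 20.9% and 27.3% of all genes, and by 48 h it was 7 and 4 (24.2% and 38.2%). Bach2, a repressor known from B cells, fell by 2.45 ± 0.21 at 3 h and was 22.5-fold lower at 48 h (SE, n = 2 per group, adjusted p = 6.2e-05 and 1.0e-06). Its signal went from 5985 and 4607 in vehicle C10 to 189 and 287 at 48 h. Nfe2, a large partner of small Maf proteins, rose by 1.40 at 3 h and 4.26 at 48 h, with 1 of its vehicle arrays under the filter level. Mafg, a small Maf gene, rose by 1.61 and 1.58, and Batf2 was higher by at least 4.33-fold at 24 h and at least 10.96-fold at 48 h. Under spike-in scaling the counts were 4 and 1 at 3 h (16.7% and 3.43% of all genes) and 7 and 1 at 48 h (20.8% and 8.49%). The 3 h median turned from -0.21 to 0.55, beside 0.60 for all genes under that scaling.

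Of 12 other immediate early genes, the 3 h fit called 6 higher and 4 lower, against 20.9% and 27.3% of all genes. By 48 h it was 10 and 2 (24.2% and 38.2%). The median was 0.36 and 1.21, or 0.62 and 0.86 with dim genes at their bounds. Dusp1, a phosphatase gene that shuts MAP kinases off, rose by 3.45 ± 0.27 at 3 h and 5.90 at 48 h (SE, n = 2 per group), and Ier3 by 3.19 and 5.54. Ptgs2, which encodes cyclooxygenase-2, was higher by at least 5.05-fold at 3 h and at least 71.5-fold at 48 h. Egr3 fell by 0.86 at 3 h and was lower by at least 7.05-fold at 48 h, but the fall at 3 h depends on the control. Its signal was 280 and 300 at 3 h, above HAFTL at 52.9 and 56.8 on both arrays, and since HAFTL lay under the filter level no size is given. At 48 h (68.6 and 51.1) it was under the level as in HAFTL, and the groups have no measured order.

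Of textbook AP-1 targets, 14 were tested. At 3 h, 6 were higher (20.9% of all genes) and 3 lower (27.3%), and by 48 h it was 10 (24.2%) and 2 (38.2%). The 10 include Mmp10, Mmp12, Mmp13 and Il6, which were under the filter level on every vehicle and HAFTL array. These genes passed the filter only through treated C10 groups, so a call of lower was hardly open to them. The median was 0.31 and 2.00, or 0.12 and 1.77 with dim genes at their bounds. The matrix metalloproteinase gene Mmp13 read 26.6 and 29.6 in vehicle C10, 99.4 and 77.8 at 3 h, then 906 and 909 at 12 h, then 11300 and 11351 at 24 h, and lastly 26924 and 27962 at 48 h. Mmp13 was higher by at least 1.18-fold at 3 h and at least 368-fold at 48 h (adjusted p = 1.0e-04 and 1.2e-08). Mmp12 was under the filter level in both groups at 3 h and was higher by at least 465-fold at 48 h, and Mmp10 was higher by at least 6.75-fold and 7.74-fold. Il6 was higher by at least 3.93-fold at 48 h. Ccnd1, which encodes cyclin D1, fell by 1.90 ± 0.07 at 3 h and rose by 1.28 at 48 h (SE, n = 2 per group, adjusted p = 1.5e-06 and 2.2e-06). The lists were chosen with earlier results of these data known, so their counts describe these arrays only.

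**Figure D4:**
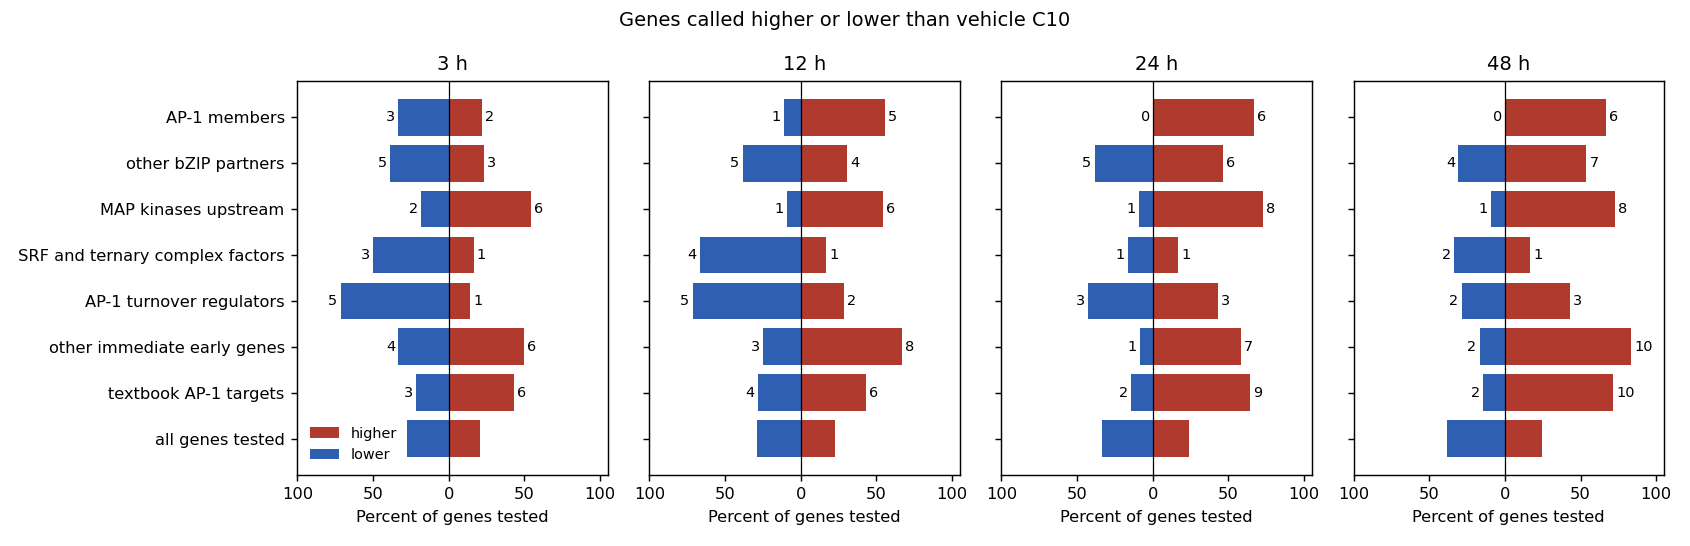
Share of tested genes (horizontal, percent) called higher (red, to the right) or lower (blue, to the left) than vehicle C10 at 4 times, for the AP-1 family, 6 lists of related genes and all genes tested (rows), with the number of genes at each bar of a list. The AP-1 row goes from 2 higher and 3 lower at 3 h to 6 higher and 0 lower at 48 h.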

How the data were processed

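RNA extracted with Trizol and labelled with biotin was read on one-colour arrays, per the labels' protocols. Each probe set has 1 deposited intensity per array, on a linear scale. Trimmed of 2% at both ends, the intensities of the first HAFTL array averaged 500, a value that scaling by the authors would explain. The other arrays were not computed. The method of summarising and scaling is not given in the sources used here. Array medians ranged from 68.5 to 85.0, and log2 intensities were quantile normalised over 45101 probe sets. After that, 64 control probe sets were left out and signals under 16, between 21.2% and 24.6% of probe sets as deposited, set to 16, which makes folds of dim genes too small. Probe sets with 1 annotated gene (34958, of which 34754 were found in the RefSeq table by Entrez ID) were kept, and each gene took its probe set of highest mean.

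Genes were fitted with limma (3.58.1) in R (4.3.3), 1 mean per group over all 12 arrays (6 residual and 1.53 prior degrees of freedom), two-sided, at adjusted p below 0.05 over 11696 genes, and the code was tested on simulated data. The comparison of 48 h with 3 h was added after seeing the data. Named genes were all members, and of each other list the 4 with the largest change at 48 h and the 2 at 3 h. Members and lists were chosen with earlier results of these data known. Alternatives changed scaling, filter, probe set choice, floor, pseudocount, samples fitted, replicate block, variance trend, minimum change, control group and arrays included. They were planned for the AP-1 genes, and extended to the other lists after seeing the data. Promoter sequences are from RefSeq. The number of arrays limits the precision.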

Additional observations from a re-analysis of the deposited data

Results flagged for a closer look

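Jun and Jund were called in opposite directions against vehicle C10 at different times, and the difference between 48 h and 3 h was itself called (limma, Benjamini-Hochberg adjusted over all genes tested). That comparison was added after these directions had been seen against the shared vehicle arrays, so its call restates them and is no independent support. Jun was higher at 48 h than at 3 h by 4.16 ± 0.17 in log2 units (SE, n = 2 per group, adjusted p = 4.3e-07), and both 48 h arrays lay above both 3 h arrays. Jund was higher by 3.49 ± 0.17 (adjusted p = 9.4e-07), again on both arrays. Under spike-in scaling these differences were 4.18 and 3.50. The 5′ to 3′ signal ratio for Actb was 0.784 and 0.746 on the 3 h arrays and 0.802 and 0.792 on the 48 h arrays.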

How the results depend on the processing

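Directions of the AP-1 genes were stable under most settings, and calls near the threshold were not. Without each array in turn, the number of AP-1 genes called ranged from 5 to 6 at 3, 12 and 24 h, 5 to 7 at 48 h, 2 to 3 in HAFTL, 6 to 7 from 3 h to 12 h, 7 to 8 from 12 h to 24 h, 2 to 6 from 24 h to 48 h (2 without the second 24 h array or either 48 h array, 3 without the first 24 h array), and 8 to 9 in the F test. With spike-in scaling the counts were 3 at 3 h, 0 in HAFTL, 3 from 3 h to 12 h, 2 from 12 h to 24 h and 0 from 24 h to 48 h. Of all genes under that scaling, 16.7% were higher and 3.43% lower at 3 h, and 0.517% and 0.550% in HAFTL. For the steps in order the shares were 2.33% and 1.16%, 4.18% and 9.59%, and 1.58% and 1.05%. With a minimum change of 1 they were 3 at 3 h, 2 at 12 h, 3 at 24 h, 0 in HAFTL, and 2, 3 and 0 for the steps in order. From 24 h to 48 h the count was 3 with median centring, with every probe set on its own and with only the groups compared. The last of these had 2 higher and 1, Maff, lower, and gave 0 in HAFTL. With median centring, 862 of 11698 genes were higher in that step and 2058 lower. With every probe set on its own it was 1655 and 2836 of 21922. With only the groups compared it was 456 and 655 of 11696, and 135 and 182 in HAFTL. The replicate number as a block gave 5, 6, 6 and 6 genes at the 4 times, and changed no call of an AP-1 gene in any comparison with vehicle C10 or between steps. Deviations of same-numbered arrays correlated between -0.03 and 0.04 over 15 pairs of groups. They were taken after quantile normalisation, which removes shifts shared by a whole array. Whether the numbers pair arrays is therefore not known. Reversed values were as follows. Spike-in scaling gave Junb -0.026 from 12 h to 24 h, Map2k1 0.41, Elk4 0.35 and Cop1 0.45 at 3 h, Elk4 0.10, Fbxw7 0.14, Zfp36l2 0.49 and Egr3 0.29 at 12 h, and Srf 0.051 and Elk4 0.26 at 48 h. Averaging all probe sets of a gene gave Elk4 0.40 and Egr3 0.20 at 3 h, Srf 0.55, Elk4 0.28 and Zfp36l2 -0.033 at 24 h, and Srf 0.26, Elk4 0.28, Zfp36l2 -0.034 and Jund -0.10 at 48 h. HAFTL as the control gave Atf3 1.02 and Egr3 2.40 at 3 h, Jun -1.34, Atf3 0.90, Zfp36l2 0.13 and Egr3 2.90 at 12 h, Egr3 3.19 at 24 h, and Elk4 0.066 and Egr3 0.11 at 48 h. Egr3 lay under the filter level on both HAFTL arrays, so its differences from HAFTL are fitted values and no measured sizes, and at 48 h both groups were under the level. Apart from what the settings themselves change, the cause was not tested. Genes under the filter level have no measured order.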
